A study of Mus musculus with 2 samples.

Results

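Csf3, Csf1, Cxcl1, Cxcl2, Ccl2, Ccl7 and Cx3cl1 encode secreted or shed proteins that make, call in or keep myeloid cells, and their RNA was followed in tumour endothelial cells (ECs) after intratumoural injection of the STING agonist cGAMP. The 7 genes were chosen by name, and all 7 were found among the 17139 genes listed for both libraries. ECs were sorted as CD31+ and CD45- live cells from subcutaneous Lewis lung carcinoma (LLC) tumours of C57BL/6 mice (C57BL/6 J in the methods) and measured with droplet-based 3′ scRNA-seq. The tumours received 14 µg of cGAMP in 70 µl of PBS, or PBS alone, and each condition was 1 library from 1 mouse, aged 8 to 9 weeks at implantation. Sampling took place 24 h after the injection by the methods, while a legend for the same libraries has 6 h. The droplet kit is version 3 in the methods and version 2 in the sample labels.

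Csf3 encodes G-CSF, which drives the production and release of neutrophils, and Csf1 encodes M-CSF, which keeps monocytes and macrophages alive. Cxcl1 and Cxcl2 encode neutrophil chemokines that bind CXCR2, Ccl2 and Ccl7 encode monocyte chemokines that bind CCR2, and Cx3cl1 encodes fractalkine, a membrane-anchored chemokine whose receptor CX3CR1 is carried by monocytes. ECs are a known source of several of these in inflammation, and they line the vessel wall where circulating leucocytes slow down and stick. In cultured ECs, NF-kB is a known activator of several of these genes.

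Depth has to be read beside every value. The PBS library held 2517 ECs and 92081146 UMIs, with a median of 29780 UMIs per cell, and the cGAMP library held 1340 ECs and 63366746 UMIs, with a median of 41178 per cell. A level is a gene's UMI sum over all cells of a library, scaled to counts per 1000000 UMIs of that library (CPM). Each mRNA molecule is counted once near its 3′ end, so that levels of different genes were set side by side without dividing by length. Intervals are exact 95% intervals that cover counting error only. Each condition being 1 library from 1 mouse, the spread between mice is unknown and nothing was tested. Both libraries carried the markers of the sort, with the 7 endothelial markers, Pecam1 and Cdh5 among them, summing to 3324 CPM after PBS and 2875 CPM after cGAMP. The 3 T or NK cell markers listed in both libraries summed to under 1 CPM in each library. The libraries shared 1 cell barcode.

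The genes lie on 4 chromosomes of GRCm38. Cxcl1 (chr5:90891241-90893115, + strand) and Cxcl2 (chr5:90903871-90905938, + strand) are 10755 bases apart, and Ccl2 (chr11:82035571-82037453, + strand) and Ccl7 (chr11:82045712-82047525, + strand) are 8258 bases apart. Csf3 (chr11:98701263-98703629, + strand) lies on the same chromosome as the Ccl genes but 16653737 bases from Ccl7. Csf1 is at chr3:107741048-107760469 on the - strand and Cx3cl1 at chr8:94772009-94782427 on the + strand. All 7 are annotated as protein coding. No pair of the 7 genes shared a stretch of 31 bases in any annotated transcript, so that reads of Cxcl1 and Cxcl2, or of Ccl2 and Ccl7, could be told apart at that length.

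Promoter sequence from RefSeq (GRCm38.p6) was available for 4 of the 7 genes, Csf1, Cxcl1, Cxcl2 and Cx3cl1. The 250 bases before each start were searched on both strands for the kappaB consensus, for AP-1 (TGANTCA), for C/EBP (TTGCNNAA), for GAS (TTCNNNGAA) and for the ISRE consensus of interferon-stimulated genes. The kappaB consensus was the only one of these that matched, in Csf1, Cxcl1 and Cxcl2, and it was held by 7.25% of all 32841 promoters searched in the same way. The stretches that hold these matches are shown 5′ to 3′, from base 160 to base 31 before the start, because Cxcl1 and Cxcl2 carry the same 11 bases. Capitals mark the kappaB matches, which in Cxcl1 and Cxcl2 are 1 match on each strand, shifted by 1 base.
Cxcl1 (chr5:90891085-90891214, + strand): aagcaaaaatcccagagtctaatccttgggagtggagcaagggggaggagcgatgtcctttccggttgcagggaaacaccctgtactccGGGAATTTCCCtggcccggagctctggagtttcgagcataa
Cxcl2 (chr5:90903739-90903868, + strand): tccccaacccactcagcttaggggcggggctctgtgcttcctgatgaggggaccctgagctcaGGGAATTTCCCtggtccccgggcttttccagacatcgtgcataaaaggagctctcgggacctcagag
Csf1 (chr3:107760500-107760629, - strand): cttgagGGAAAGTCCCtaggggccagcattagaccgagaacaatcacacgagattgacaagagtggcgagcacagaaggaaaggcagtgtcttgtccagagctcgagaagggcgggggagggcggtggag
The matched letters start 71 bases before the start of Cxcl1, 97 before that of Cxcl2 and 154 before that of Csf1. They are a description of the sequence and no measurement of binding.

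Over all ECs, Csf3 was the gene of the 7 that differed most between the conditions, and Ccl2 was the most abundant of them in both. Of the 7 genes, 6 had a higher level after cGAMP and 1, Csf1, a slightly lower one. Csf3 and Ccl7 were at least 2-fold higher, and none was at least 2-fold lower. Of the 9509 genes that reached 5 CPM in one library or both, 173 (1.82%) were at least 2-fold higher, 162 (1.7%) were at least 2-fold lower, and 40.4% were higher by any amount. The median log2 ratio of the 7 genes, cGAMP over PBS, was 0.93, and that of the 9509 genes was -0.08. Ccl7 is outside the 9509 because it stayed under 5 CPM in both libraries, so that 1 of the 6 members with at least 5 CPM passed 2-fold. That member, Csf3, was at 4.12 CPM after PBS and reached 5 CPM only in the cGAMP library, where it was high. Nothing was therefore read from this count or from the rank of Csf3 among the 9509 genes. The median of the 7 genes and their number of higher genes include both Ccl7 and Csf3. They were thus not taken under the same minimum as the values of the 9509 genes, and nothing was read from them either.

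**Figure D1:**
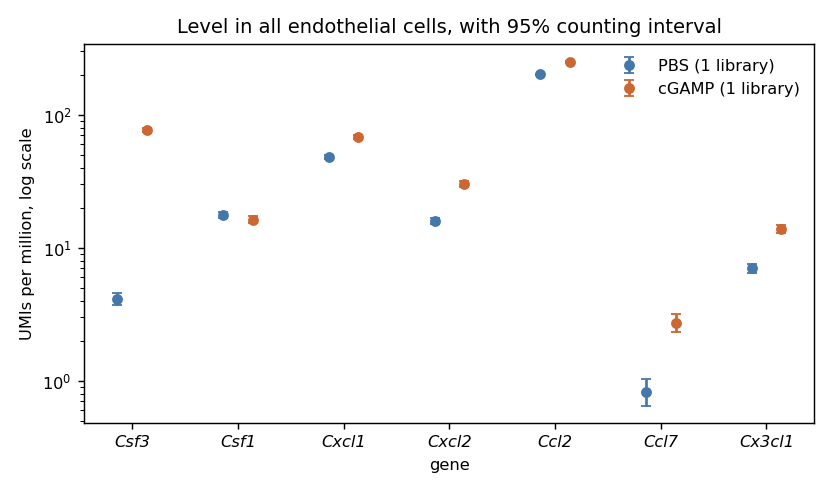
Level of each gene in CPM (log axis) over all ECs of the PBS library (blue) and the cGAMP library (orange), 1 library each, with exact 95% Poisson intervals. Csf3 moves from 4.12 to 76.9 CPM, while Ccl2 stays the most abundant at 202 and 249 CPM and Csf1 hardly differs at 17.7 and 16.3 CPM.

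**Figure D2:**
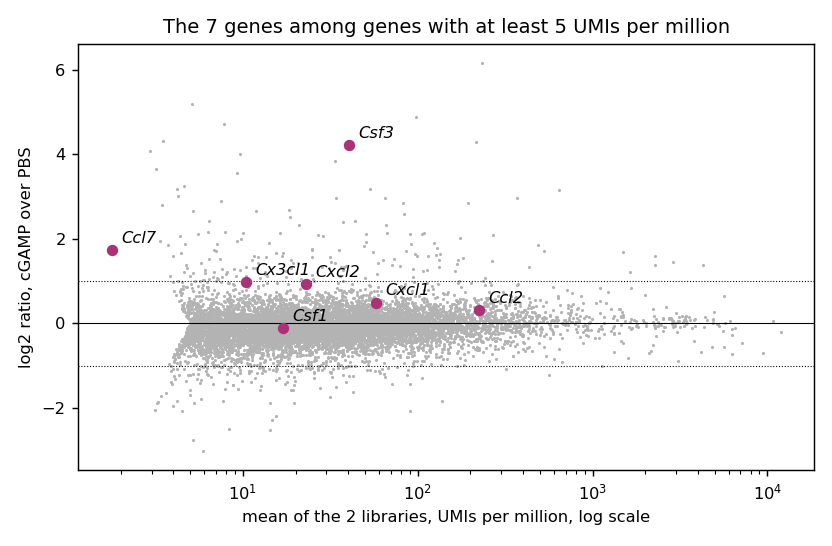
Log2 ratio of cGAMP over PBS against the mean level of the 2 libraries (log axis) for genes that reached 5 CPM in one library or both (grey) and the 7 genes (purple); dotted lines mark 2-fold. Csf3 lies at 4.22 and passed 5 CPM only through the cGAMP library. Ccl7 at 1.73 lies left of the grey points because of its low level, and Cx3cl1 and Cxcl2 lie just under the 2-fold line.

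Among the growth factors, Csf3 was at 4.12 CPM (95% interval 3.71 to 4.55, 379 UMIs) after PBS and at 76.9 CPM (74.7 to 79.0, 4870 UMIs) after cGAMP. The ratio was 18.7-fold, with a counting interval of 16.8 to 20.8. Csf3 moved from 9689th to 2055th in the order of all genes by level. Csf1 was at 17.7 CPM (16.8 to 18.5, 1626 UMIs) after PBS and at 16.3 CPM (15.3 to 17.3, 1031 UMIs) after cGAMP, a log2 ratio of -0.12 (-0.23 to -0.00). Csf1 was the more abundant of the 2 growth factors after PBS, and Csf3 after cGAMP.

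Among the neutrophil chemokines, Cxcl1 was at 48.2 CPM (46.8 to 49.6) after PBS and at 67.8 CPM (65.8 to 69.9) after cGAMP, a log2 ratio of 0.49 (0.43 to 0.55). Cxcl2 was at 15.8 CPM (15.02 to 16.7) after PBS and at 30.2 CPM (28.9 to 31.6) after cGAMP, a log2 ratio of 0.93 (0.83 to 1.03). Both levels were higher after cGAMP, Cxcl2 by the larger ratio, and Cxcl1 was the more abundant of the pair in both libraries. A single cell of the cGAMP library held 682 of the 1124 UMIs of neutrophil markers of that library and 182 of the 1913 UMIs of Cxcl2. Without this cell, and without the cell richest in those markers in the PBS library, the log2 ratio of Cxcl2 was 0.79.

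Among the monocyte chemokines, Ccl2 was at 202 CPM (199 to 204, 18555 UMIs) after PBS and at 249 CPM (245 to 253, 15790 UMIs) after cGAMP, a log2 ratio of 0.31 (0.28 to 0.34). Ccl2 gave 68.3% of the UMIs of the 7 genes after PBS and 54.5% after cGAMP, while the share of Csf3 went from 1.39% to 16.8%. Ccl7 was at 0.83 CPM (0.65 to 1.03, 76 UMIs) after PBS and at 2.73 CPM (2.34 to 3.17, 173 UMIs) after cGAMP, a log2 ratio of 1.73 (1.33 to 2.13). The neighbouring genes Ccl2 and Ccl7 thus stood at opposite ends of the 7 in level.

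Cx3cl1, the membrane-anchored chemokine, was at 7.05 CPM (6.52 to 7.61, 649 UMIs) after PBS and at 13.8 CPM (12.9 to 14.8, 876 UMIs) after cGAMP. Its log2 ratio was 0.97 (0.82 to 1.12), an interval that spans 2-fold. In order of level after PBS the 7 genes ran Ccl2, Cxcl1, Csf1, Cxcl2, Cx3cl1, Csf3 and Ccl7, and after cGAMP they ran Ccl2, Csf3, Cxcl1, Cxcl2, Csf1, Cx3cl1 and Ccl7. In both orders, each pair of neighbours had counting intervals that did not overlap.

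Cells of other kinds were looked for beside these values, because neutrophils and macrophages also transcribe these genes. The 6 neutrophil markers listed in both libraries summed to 0.956 CPM after PBS and 17.7 CPM after cGAMP, and to 6.98 CPM after cGAMP without the single cell above. All 6 were under 1 CPM after PBS and 4 were after cGAMP, with 1 of them, after PBS, at 0. The 10 macrophage or monocyte markers summed to 15.7 CPM after PBS and 35.0 CPM after cGAMP, none at 0, and Lyz2, a lysozyme gene of myeloid cells, was the highest of them after cGAMP at 12.6 CPM. The 7 fibroblast markers summed to 9.82 CPM after PBS and 4.12 CPM after cGAMP, with 1 of them, after cGAMP, at 0. The 7 pericyte or smooth muscle markers had a higher sum, 40.5 CPM after PBS and 45.9 CPM after cGAMP. Most of it was Kcnj8, at 24.6 and 36.1 CPM. The 4 epithelial or tumour markers listed in both libraries summed to 2.15 and 0.395 CPM. In the cells where Cdh5 and Pecam1 were both found but Ptprc, S100a8, S100a9, Lyz2, Col1a1 and Dcn were not, which were 1987 cells after PBS and 671 after cGAMP, Csf3 was at 4.32 and 73.7 CPM, Cxcl2 at 17.2 and 27.3 CPM, Ccl7 at 0.782 and 2.32 CPM, and Cx3cl1 at 7.55 and 15.7 CPM. In these cells the ratio of Csf3 was close to that of all ECs, and that of Cxcl2 was a log2 ratio of 0.67.

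The share of cells that carried each RNA was compared after thinning every cell to 5000 UMIs, since the cells of the cGAMP library were deeper. This left out 70 cells of the PBS library and 13 of the cGAMP library. Csf3 was found in 1.51% of 2447 PBS-treated ECs (1.07 to 2.08) and in 13.0% of 1327 cGAMP-treated ECs (11.3 to 14.97). Without thinning, the shares were 5.60% and 27.8%. The share of cells with Csf3 was thus 8.62-fold higher (6.02 to 12.7), while the level was 18.7-fold higher, and cells with a UMI carried 2.69 UMIs on average after PBS and 13.1 after cGAMP.

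Csf1 was found in 8.34% of thinned cells after PBS and 7.46% after cGAMP, with overlapping intervals. Without thinning the shares of Csf1 were 33.3% and 37.5%, so that their order went the other way. Cxcl1 went from 14.8% to 20.6% of thinned cells (43.5% and 52.5% without thinning). Cxcl2 went from 4.54% to 8.59% (16.8% and 36.2% without thinning). Their shares were higher after cGAMP, with intervals that did not overlap.

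Ccl2 was found in 20.4% (18.8 to 22.0) of thinned cells after PBS and 23.4% (21.2 to 25.8) after cGAMP, and in 43.0% and 52.9% without thinning. It was the RNA found in the most cells of the 7 in both libraries at that depth, and its intervals overlapped. Cx3cl1 went from 3.27% to 7.01% of thinned cells, and from 16.2% to 30.4% without thinning. Ccl7 was found in 0.286% of thinned cells after PBS and in 1.58% after cGAMP, and in 2.94% and 11.2% without thinning.

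Free RNA in droplets can give UMIs of genes that ECs should lack, and its amount was not measured here, so the shares were set beside those of genes of other cell types. Lyz2 was found in 1.80% and 5.65% of the same thinned cells, the neutrophil gene S100a8 in 0.123% and 1.58%, and the fibroblast gene Col1a1 in 0.531% and 0.452%. The share of Ccl7 was no higher than that of Lyz2 in either library and after cGAMP was equal to that of S100a8, so that it could not be told apart from such a background. The share of Csf3 after PBS was also no higher than that of Lyz2 over all ECs, but it differed between clusters, with 5.81% of stalk-like and 0.423% of Ramp3/Igfbp3 ECs. After cGAMP the share of Csf3 over all ECs was above that of Lyz2. The shares of Cxcl1 and Ccl2 were above that of Lyz2 in both libraries, as was that of Cxcl2, with 4.54% against 1.80% after PBS and 8.59% against 5.65% after cGAMP. The shares of Csf1 and Cx3cl1 were above that of Lyz2 after PBS, but after cGAMP their intervals (6.10 to 9.01 and 5.69 to 8.52) overlapped with that of Lyz2 (4.47 to 7.03).

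**Figure D3:**
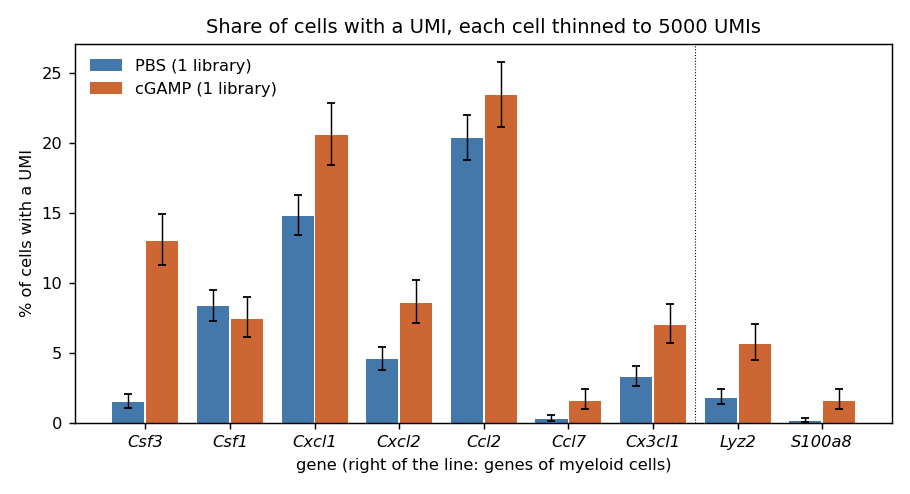
Percent of cells with at least 1 UMI of each gene after thinning every cell to 5000 UMIs, in the PBS library (blue, 2447 cells) and the cGAMP library (orange, 1327 cells), with exact 95% binomial intervals; Lyz2 and S100a8, right of the dotted line, are genes of myeloid cells. Csf3 goes from 1.51% to 13.0%, Csf1 stays near 8%, and Ccl7 stays at or under the level of Lyz2.

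The UMIs of some genes came from few cells and those of others from many. In the PBS library, the 1% of cells richest in a gene held 58.3% of the UMIs of Csf3, 38.4% of those of Cxcl2 and 36.8% of those of Ccl2, against 12.9% for Csf1 and 13.1% for Cxcl1. In the cGAMP library these shares were 24.7% for Csf3, 33.4% for Cxcl2, 35.7% for Ccl2, 12.9% for Csf1 and 13.6% for Cxcl1. Csf3 was therefore spread over more of the cells after cGAMP, while Ccl2 kept a few very rich cells in both libraries. The richest single cell held 497 UMIs of Ccl2 after PBS and 905 after cGAMP, and cells with at least 10 UMIs of Ccl2 made up 12.0% and 16.1%. Cells with at least 10 UMIs of Csf3 were 7 of 2517 after PBS and 118 of 1340 after cGAMP, or 0.278% and 8.81%.

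**Figure D4:**
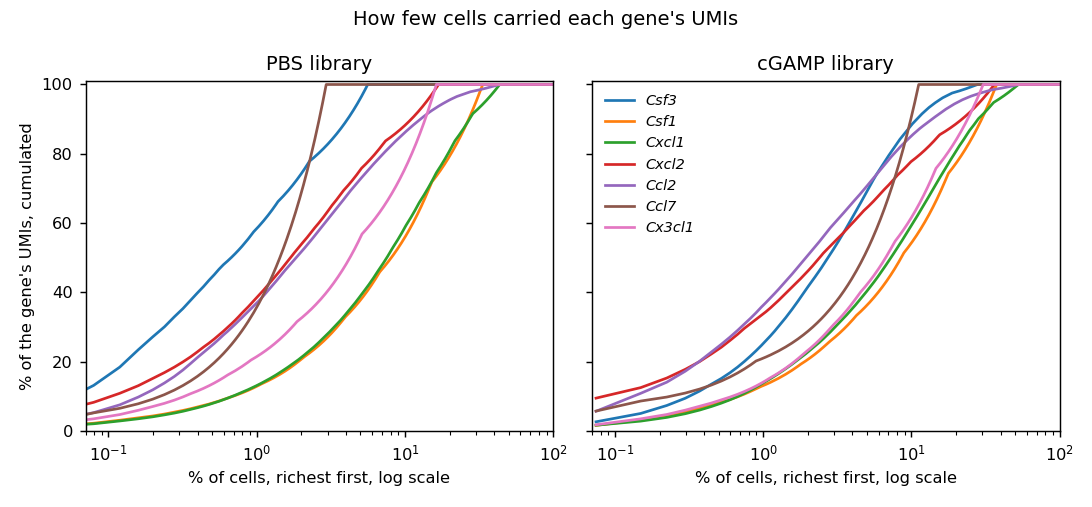
Cumulated percent of the UMIs of each gene against the percent of cells, richest cells first (log axis), in each library. Curves that climb early belong to genes carried by few cells, such as Ccl2 with 35.7% of its UMIs in 1% of cells after cGAMP, and the curve of Csf3 lies further right after cGAMP than after PBS.

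ECs were clustered across both libraries with the 7 genes left out of the clustering, which gave 8 clusters. With 338 cells in the PBS and 327 in the cGAMP library, the stalk-like cluster showed Ackr1 and Selp, genes of postcapillary venules, as its leading genes and had 8 of its 12 markers raised at least 2-fold. The proliferative cluster (491 and 181 ECs) was led by Ube2c and Cenpf, and the arterial cluster (344 and 175 ECs) by Gja4 and Nts. Of the tip-like clusters, 1 (166 and 73 ECs) was led by Pgf and Gal, and 1 (221 and 86 ECs) by Chga, with the interferon-induced genes Rsad2 and Ifit2 also among its leading genes. The others did not meet the rule for a class name and are called by their leading genes, Ramp3/Igfbp3 (723 and 304 ECs), the replication genes Ung/Hells (187 and 142 ECs) and Igfbp5/Ctsh (47 and 52 ECs). The Igfbp5/Ctsh cluster had 10 stalk-like markers raised but none among its top 10 genes, and it had 3 arterial markers raised, of which Mgp was among its top 10. The Ramp3/Igfbp3 cluster had the tip-like marker Esm1 among its top 10 genes but 0 markers of any class raised at least 2-fold. The thresholds of this naming were set with the clusters known, and another analysis may name cells differently.

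**Figure D5:**
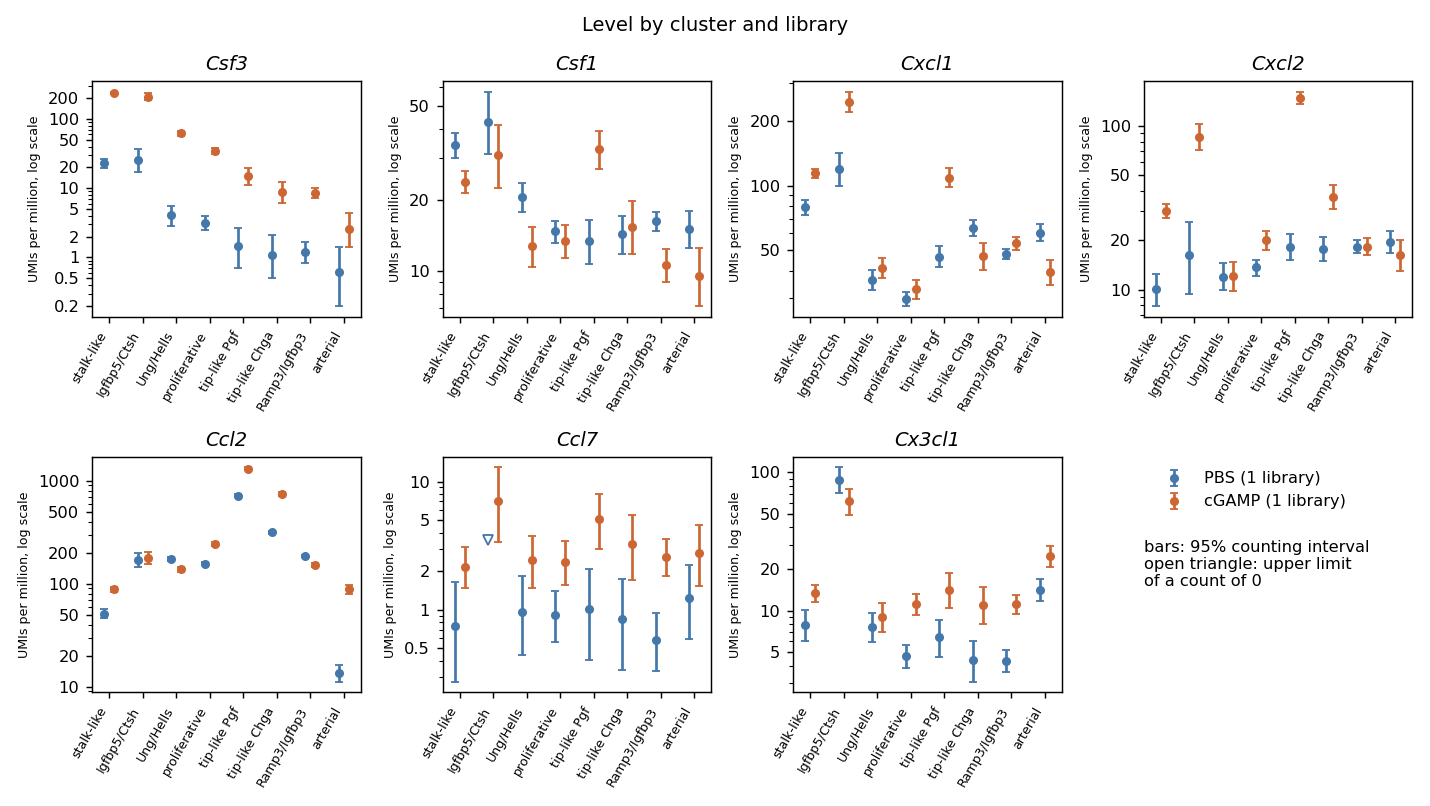
Level of each gene in CPM (log axis, own scale in each panel) in the 8 clusters, for the PBS library (blue) and the cGAMP library (orange), with exact 95% Poisson intervals; clusters without a class name carry their leading genes. Csf3 lies higher after cGAMP in all 8 clusters, Ccl2 is highest in the tip-like clusters, and Cx3cl1 is highest in the Igfbp5/Ctsh cluster.

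Csf3 was highest in stalk-like and Igfbp5/Ctsh ECs and lowest in arterial ECs, in both libraries. After PBS its levels were 23.0 CPM in stalk-like ECs, 25.7 in Igfbp5/Ctsh ECs, 4.07 in Ung/Hells ECs, 3.17 in proliferative ECs, 1.45 and 1.09 in tip-like ECs (Pgf and Chga clusters), 1.203 in Ramp3/Igfbp3 ECs and 0.613 in arterial ECs. After cGAMP they were 240.2 CPM in stalk-like ECs, 210.2 in Igfbp5/Ctsh ECs, 62.3 in Ung/Hells ECs, 35.1 in proliferative ECs, 14.9 and 8.71 in tip-like ECs, 8.57 in Ramp3/Igfbp3 ECs and 2.57 in arterial ECs. The intervals of the 2 highest clusters overlapped in both libraries, and the next cluster in the order, Ung/Hells ECs, lay apart from both. Csf3 was higher after cGAMP in 8 of 8 clusters, with counting intervals above 0 in all 8 and log2 ratios of 2.07 to 3.94. After thinning, its share after cGAMP was no higher than that of Lyz2 in Ramp3/Igfbp3 (1.66% against 5.98%), arterial (0.581% against 1.74%) and tip-like Chga ECs (2.38% for both). In the other clusters it was higher, but only in stalk-like and Igfbp5/Ctsh ECs were the intervals apart. The part of free RNA in the levels of single clusters was not tested. In arterial ECs 9 of the 14 UMIs after cGAMP were in 2 cells, and without the 2 richest cells of each library the levels were 0.371 and 0.949 CPM, with a log2 ratio of 1.35 whose interval (-1.01 to 4.04) spans 0. After cGAMP the 2 richest cells also held 27 of 35 UMIs in tip-like Chga, 34 of 53 in tip-like Pgf and 64 of 129 in Ramp3/Igfbp3 ECs. Without the 2 richest cells of each library the levels were 0 and 2.05 CPM, 0.445 and 5.51 CPM, and 0.696 and 4.36 CPM. The intervals of these ratios stayed above 0. The log2 ratio of Csf3 was lower in every cluster than the 4.22 of all ECs, and with the proportions of the clusters held equal it was 3.35.

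Stalk-like ECs gave 48.5% of all Csf3 UMIs after PBS and 70.4% after cGAMP, being 13.4% and 24.4% of the cells. The log2 ratio of stalk-like over all other ECs was 3.31 (3.01 to 3.61) after PBS and 3.03 (2.94 to 3.12) after cGAMP. After thinning, 33.2% of stalk-like ECs held Csf3 after cGAMP, against 5.81% after PBS, and 36.5% of Igfbp5/Ctsh ECs did. The 2 richest PBS-treated Igfbp5/Ctsh cells held 21 of the 27 UMIs of that cluster, and without the 2 richest cells of each library its levels were 6.00 and 139 CPM. The neutrophil markers summed to 13.5 CPM in stalk-like ECs after cGAMP and to 0.876 CPM after PBS. The fibroblast markers summed to 36.4 CPM in Igfbp5/Ctsh ECs after cGAMP, and to between 2.72 and 5.33 CPM in the other clusters. After PBS they summed to 9.52 CPM in Igfbp5/Ctsh ECs, and to between 7.56 and 12.0 CPM in the others. The part of fibroblasts in the levels of the Igfbp5/Ctsh cluster was not tested. Ackr1, the atypical receptor that holds chemokines on venular ECs, was at 224 CPM in stalk-like ECs after PBS and 488 CPM after cGAMP, and the interleukin-6 gene Il6 was at 92.3 and 147 CPM. Both were higher in Igfbp5/Ctsh ECs, with Ackr1 at 567 and 818 CPM and Il6 at 140 and 270 CPM. Ackr1 is also among the markers of the stalk-like class.

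Csf1 was higher in stalk-like ECs than in the other ECs too, but it was lower after cGAMP in most clusters. The log2 ratio of stalk-like over other ECs was 1.08 (0.89 to 1.27) after PBS and 0.76 (0.57 to 0.95) after cGAMP. In stalk-like ECs it was at 34.1 CPM after PBS and 23.8 CPM after cGAMP, and in the Ramp3/Igfbp3, arterial and Ung/Hells clusters it was at 16.2, 15.1 and 20.6 CPM after PBS and at 10.6, 9.56 and 12.8 CPM after cGAMP. These 4 clusters had counting intervals below 0. The share of thinned cells with Csf1 went from 15.6% to 8.62% in stalk-like and from 8.18% to 5.98% in Ramp3/Igfbp3 ECs. It went the other way in arterial ECs, from 4.29% to 5.23%, and in Ung/Hells ECs, from 6.45% to 8.45%. In each of these clusters the intervals of the shares overlapped. In the tip-like Pgf cluster Csf1 was at 13.4 CPM (10.8 to 16.4) after PBS and 32.7 CPM (27.0 to 39.2) after cGAMP, the only cluster with an interval above 0. After cGAMP the tip-like Pgf cluster and the Igfbp5/Ctsh cluster (30.8 CPM) were highest, with overlapping intervals. The cells with a Csf1 UMI in the tip-like Pgf cluster made up 7.32% and 15.1% after thinning, and the cell rich in neutrophil markers, which lies in that cluster, held 0 UMIs of Csf1.

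Cxcl1 was highest in Igfbp5/Ctsh ECs in both libraries, with 119 CPM (99.0 to 142) after PBS and 245 CPM (220 to 272) after cGAMP. Without the 2 richest cells of each library in that cluster the levels were 54.0 and 204.6 CPM. The rank after PBS was then lost. With their own 2 richest cells left out, stalk-like (74.1 CPM), tip-like Chga (56.9 CPM) and arterial ECs (55.3 CPM) lay higher. After thinning, 10.9% of Igfbp5/Ctsh and 21.4% of stalk-like ECs held Cxcl1 after PBS. With all cells, Cxcl1 was at 79.1 CPM in stalk-like ECs after PBS and 114 CPM after cGAMP, and in the tip-like Pgf cluster at 46.8 and 109 CPM. In arterial ECs it went the other way, from 60.5 to 39.7 CPM, as it did in the tip-like Chga cluster, from 63.6 to 47.1 CPM. Proliferative ECs had the lowest level in both libraries, 29.8 and 33.1 CPM. Cxcl1 was higher after cGAMP in 6 of 8 clusters, with counting intervals above 0 in 4 of them and below 0 in the other two.

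The levels of Cxcl2 spanned 1.96-fold across the clusters after PBS and 12.3-fold after cGAMP. After PBS its levels ran from 10.0 CPM (7.94 to 12.5) in stalk-like ECs to 19.6 CPM (16.7 to 22.9) in arterial ECs. Each neighbouring pair in that order had overlapping intervals, but the lowest and the highest cluster did not, and the log2 ratio of stalk-like over all other ECs was -0.71 (-1.05 to -0.38). After cGAMP it was at 148 CPM (136 to 161) in the tip-like Pgf cluster, 85.5 CPM (71.0 to 102) in Igfbp5/Ctsh ECs, 36.9 CPM in the tip-like Chga cluster and 30.1 CPM in stalk-like ECs, and between 12.0 and 19.95 CPM in the other four. Cells carried these levels unevenly. In the tip-like Pgf cluster, the 2 richest cGAMP-treated cells held 235 of 525 UMIs, of which 182 were in the cell rich in neutrophil markers, and without the 2 richest cells of each library the level was 12.3 CPM after PBS and 84.2 CPM after cGAMP. In Igfbp5/Ctsh ECs the 2 richest cells held 16 of 17 UMIs after PBS and 67 of 122 after cGAMP, and without them the levels were 1.03 CPM (1 UMI), then the lowest of the clusters after PBS, and 40.1 CPM. The cell rich in neutrophil markers makes the neutrophil markers sum to 198 CPM in the tip-like Pgf cluster after cGAMP. The part of such cells in the remaining difference was not tested. After thinning, 26.0% of tip-like Pgf ECs held Cxcl2 after cGAMP and 4.27% after PBS.

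Ccl2 was highest in tip-like ECs in both libraries. In the tip-like Pgf cluster it was at 717 CPM (697 to 737) after PBS and 1308 CPM (1271 to 1346) after cGAMP, and in the tip-like Chga cluster at 315 CPM (303 to 327) and 742 CPM (715 to 769). The other clusters ran from 13.6 CPM in arterial ECs to 187 CPM in Ramp3/Igfbp3 ECs after PBS, and from 88.0 CPM in arterial ECs to 242 CPM in proliferative ECs after cGAMP. Stalk-like ECs, which were rich in Csf3, had a log2 ratio of Ccl2 over all other ECs of -2.08 (-2.22 to -1.94) after PBS and -1.74 (-1.83 to -1.66) after cGAMP. The tip-like Pgf cluster was 6.60% of the cells and gave 26.6% of the Ccl2 UMIs after PBS, and it was 5.45% of the cells and gave 29.4% after cGAMP.

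Ccl2 was higher after cGAMP in 6 of 8 clusters and lower in Ramp3/Igfbp3 ECs (187 CPM after PBS and 151 CPM after cGAMP) and in Ung/Hells ECs (174 and 138 CPM). In arterial ECs it went from 13.6 to 88.0 CPM, but 391 of the 479 UMIs after cGAMP were in 2 cells, and without the 2 richest cells of each library the levels were 8.96 and 16.3 CPM. The share of thinned arterial ECs with Ccl2 was 6.75% after PBS and 6.98% after cGAMP. In proliferative ECs the 2 richest cells held 1232 of 2756 UMIs after cGAMP, and without them the levels were 128 and 136 CPM. In Igfbp5/Ctsh ECs the log2 ratio was 0.06 (-0.22 to 0.35), but 142 of the 179 UMIs after PBS were in 2 cells, and without the 2 richest cells of each library the levels were 38.2 and 129 CPM, a log2 ratio of 1.75 (1.24 to 2.31). In the tip-like clusters the ratio did not depend on such cells alone, with log2 ratios of 0.80 (Pgf) and 0.91 (Chga) without the 2 richest cells against 0.87 and 1.24 with them.

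Ccl7 was low in every cluster. It was between 0.584 and 1.23 CPM after PBS in the 7 clusters where it was found, with 0 UMIs in Igfbp5/Ctsh ECs, which allows up to 3.51 CPM. After cGAMP it ran from 2.17 CPM (1.48 to 3.08) in stalk-like ECs to 7.01 CPM (3.36 to 12.9) in Igfbp5/Ctsh ECs. Neighbouring clusters in order of level had overlapping intervals in both libraries, but after cGAMP the lowest and the highest cluster did not. The 10 UMIs of the richest cell made up most of the 18 UMIs in the tip-like Pgf cluster after cGAMP.

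Cx3cl1 had its highest level in Igfbp5/Ctsh ECs, at 88.5 CPM (71.4 to 108) after PBS and 61.6 CPM (49.4 to 76.0) after cGAMP. Arterial ECs came next, at 14.1 CPM (11.6 to 16.9) after PBS and 24.8 CPM (20.8 to 29.4) after cGAMP, and the intervals of these 2 clusters did not overlap with each other or with the cluster that followed. The other clusters ran from 4.34 to 7.89 CPM after PBS and from 8.99 to 14.1 CPM after cGAMP. Cx3cl1 was higher after cGAMP in 7 of 8 clusters, with counting intervals above 0 in 6, and lower in Igfbp5/Ctsh ECs, where 30.4% of thinned cells held it after PBS and 9.62% after cGAMP. That cluster has 47 and 52 cells and gave 14.3% and 10.0% of the Cx3cl1 UMIs, so that most of this RNA lay in other clusters. After cGAMP its share of thinned cells with Cx3cl1 was close to those of tip-like Pgf (9.59%), arterial (9.30%) and stalk-like ECs (9.23%). The share of Cx3cl1 was then under that of Lyz2 in Ramp3/Igfbp3 (4.65% against 5.98%), proliferative (5.06% against 6.74%) and Ung/Hells ECs (4.23% against 5.63%). In the other clusters it was higher, but only in arterial ECs were the intervals apart. The part of free RNA in the levels of single clusters was not tested.

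The members were next compared cell by cell. After thinning, 41.2% of the cells held, after PBS, and 53.7%, after cGAMP, a UMI of at least 1 of the 7 genes, and 9.60% and 20.7% held at least 2 of them. Cxcl1 and Cxcl2 were found together in 1.55% of cells after PBS, against 0.671% if they were unrelated, and in 3.54% against 1.77% after cGAMP. Csf3 and Cxcl1 were found together in 5.20% of cells after cGAMP, against 2.68% if unrelated. Within stalk-like ECs this pair was closer to unrelated, at 12.9% (9.47 to 17.1) against 10.3%, while in all other ECs it was found in 2.69% against 1.11%. Csf3 and Ccl2 were found together in 3.17% of cells after cGAMP, against 3.06% if unrelated.

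Over the 16 sums of cluster and library, the members followed one another to different degrees. The closest pair was Csf1 and Cxcl1 (Pearson's r = 0.75 on log2(CPM + 1)), followed by Cxcl2 and Ccl7 (r = 0.73), Cxcl1 and Cx3cl1 (r = 0.66) and Cxcl1 and Cxcl2 (r = 0.62). The 16 points share 2 libraries, and r is given as a description. Ccl7 had at most 39 UMIs in any of these sums, and the sums of Cxcl2 and Ccl7 include the cell rich in neutrophil markers. Of the genes that reached 20 CPM in one library or both, those most like Csf3 were Mustn1 (r = 0.90), Cd14, a co-receptor of TLR4 (r = 0.89), and Ackr1 (r = 0.88). Those most like Cxcl1 were Pnrc1 (r = 0.92), the NF-kB inhibitor gene Nfkbia (r = 0.91) and the adhesion molecule gene Vcam1 (r = 0.89). Those most like Ccl2 were C1d (r = 0.92), Tbca (r = 0.91) and the lactate transporter gene Slc16a3 (r = 0.89). Those most like Cxcl2 were Sbds (r = 0.86), Chmp7 (r = 0.81) and Tspo (r = 0.81), in values that include the cell rich in neutrophil markers.

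The ligands of this kind that were abundant in ECs differed little between the conditions, apart from Il6. Of 25 such genes, 22 were listed and 7 reached 5 CPM in one library or both, of which 4 were at least 2-fold higher after cGAMP and 0 at least 2-fold lower, beside 1.82% and 1.7% of all 9509 genes. Mif was at 501 and 538 CPM, the stem cell factor gene Kitl at 115 and 114 CPM, and Cxcl12 at 105 and 130 CPM. The 4 higher genes were Il6 (32.9 and 92.8 CPM), the chemokine gene Ccl4 (0.326 and 5.55 CPM), Cxcl16 (1.67 and 7.07 CPM) and the platelet factor gene Pf4 (2.74 and 6.83 CPM), and all but Il6 passed 5 CPM only through the cGAMP library, where they were high, so that nothing was read from their count. Pf4 was named after its values were seen. Of the 9 receptors of the members, 7 were listed and none reached 5 CPM.

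Genes that hold, clear or shed chemokines had 11 of 15 members at 5 CPM or more, with a median log2 ratio of -0.19. Ackr1 was the only one at least 2-fold higher (39.5 and 171 CPM) and Sdc4, a heparan sulfate proteoglycan gene, the only one at least 2-fold lower (11.3 and 4.92 CPM). Sdc4 passed 5 CPM only through the PBS library, where it was high, so that nothing was read from the count of lower genes. Of all 9509 genes, 1.82% were at least 2-fold higher and 1.7% at least 2-fold lower. Hspg2, which encodes perlecan, was at 501 and 321 CPM, Ndst1, an enzyme of heparan sulfate synthesis, at 47.9 and 30.5 CPM, and the sheddase gene Adam10, whose product cuts fractalkine from the membrane, at 148 and 107 CPM.

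Of 14 receptors and adaptors upstream of the members, 13 had 5 CPM or more, with 0 past 2-fold in either direction and a median log2 ratio of 0.04. Of all 9509 genes, 1.82% were at least 2-fold higher and 1.7% at least 2-fold lower, with a median of -0.08. Nothing was read from a count of 0 in a list of this size. The TNF receptor gene Tnfrsf1a was at 185 and 191 CPM, Ifngr1 at 117 and 113 CPM, Il6st at 112 and 128 CPM, the adaptor gene Myd88 at 28.7 and 40.8 CPM, Ifnar1 at 56.0 and 34.1 CPM and Ifnar2 at 89.7 and 115 CPM. Of 23 genes of transcription factors and mRNA decay, all with at least 5 CPM, 1 was at least 2-fold higher and 0 were at least 2-fold lower. These counts stand beside the same 1.82% and 1.7% of all genes, and the median log2 ratio was 0.18. The gene past 2-fold was Cebpb (40.1 and 131 CPM), which encodes a C/EBP factor. Nfkbia was at 897 and 1293 CPM, Junb at 780 and 964 CPM, Jun at 954 and 914 CPM and the AP-1 gene Fosl1 at 5.54 and 10.8 CPM.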

How the data were processed

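Droplet-based 3′ scRNA-seq data of sorted tumour ECs were analysed, with 1 library per condition. The authors aligned reads to mm10 with Cell Ranger 3.0.0, used Seurat 3.1.1 and removed cells with fewer than 500 genes or over 10% mitochondrial UMIs, genes found in fewer than 3 cells, and Pecam1-negative clusters. They deposited 1 value per gene and cell, the natural log of 1 + UMIs per 10000 UMIs of that cell. They were turned back into UMIs, with 100% of 13483883 and 7904326 values within 0.01 of a whole number. The filters could not be relaxed, and doublets were neither removed nor called.

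UMIs were summed per library or cluster and compared without a test, since 1 mouse per condition gives no spread. Levels have exact Poisson 95% intervals, log2 ratios exact conditional binomial (Clopper-Pearson based) intervals and shares exact Clopper-Pearson intervals, computed with scipy 1.17.1 and tested on simulated data. The fold of 2 and the minimum of 5 CPM set which genes count as higher or lower. Clustering was done in R 4.3.3 (Seurat 5.3.0) with integration anchors, 30 principal components and a Louvain resolution of 0.5. Of 2500 variable genes 1765 were used, without the members, without the genes of the lists and without genes that differed at least 2-fold between the libraries. The lists are those of other ligands, receptors of the members, chemokine handling, upstream receptors and adaptors, and transcription factors and mRNA decay. A marker counted for a cluster where its CPM, with 5 added, was at least 2-fold that of the remaining cells, averaged over libraries. A cluster took the name of the class with the most such markers, where it had at least 3 of them, at least 1 among its 10 leading genes and no more of another class there.

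The members, the gene lists, the markers and the rule for named genes (the members, the 3 highest and the 3 most different genes of each list, and the 3 genes most like each member with at least 20 CPM) were chosen with earlier results of these data known. A gene that this rule names is not reported here. Coordinates and transcripts are from GENCODE vM21 (GRCm38), and promoters from RefSeq. Alternatives were median-of-ratios scaling, per-cell CPM averaged over cells, equal cluster proportions, a mitochondrial limit of 5%, stricter EC cells, thinning to 5000 or 10000 UMIs, leaving out the 10 richest cells, a minimum of 20 CPM and other clusterings. Leaving out the cell richest in neutrophil markers, or the 2 richest cells of a cluster, was added after seeing the data. Figures were drawn with matplotlib 3.10.9.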

Additional observations from a re-analysis of the deposited data

Results flagged for a closer look

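For 4 of the 7 genes, single clusters moved in opposite directions between the conditions, each with a counting interval on its own side of 0. With 1 library a condition the difference between clusters was not tested. The share of all genes with such clusters was not counted, so that nothing was read from the 4 of 7. The log2 ratio of Csf1, cGAMP over PBS, was 1.29 in the tip-like Pgf cluster and -0.69 in Ung/Hells ECs. In Ung/Hells ECs the share of thinned cells with Csf1 went from 6.45% to 8.45%, with overlapping intervals. The log2 ratio of Cxcl1 was 1.22 in the tip-like Pgf cluster and -0.61 in arterial ECs. That of Ccl2 was 2.69 in arterial ECs, where 2 cells held most of the UMIs, and -0.33 in Ung/Hells ECs. That of Cx3cl1 was 1.35 in Ramp3/Igfbp3 ECs and -0.52 in Igfbp5/Ctsh ECs. Without the 2 richest cells of each library and cluster, these 8 ratios kept their sign, and that of Ccl2 in arterial ECs was 0.86. Lyz2 had a log2 ratio of 1.43 in Ramp3/Igfbp3 ECs. The part of free RNA in the ratio of Cx3cl1 there was not tested.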

How the results depend on the processing

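The log2 ratios of the 7 genes kept their sign under each of the 7 alternatives to the way they were computed and without the cell richest in neutrophil markers. Several values left their counting interval. With the mean of per-cell CPM the log2 ratios were 3.86 for Csf3, 0.63 for Cxcl1, 1.18 for Cxcl2 and 0.58 for Ccl2, and after thinning to 5000 UMIs they were 4.03 for Csf3, 0.67 for Cxcl1, 1.15 for Cxcl2, 0.58 for Ccl2 and 2.47 for Ccl7. Both of these give each cell like weight, and under both 4 of the 7 genes were at least 2-fold higher in place of 2, as Cxcl2 and Cx3cl1 passed 2-fold. The count was 3 under median-of-ratios scaling, with cluster proportions held equal and in the stricter ECs. With cluster proportions held equal the log2 ratios were 3.35 for Csf3, -0.33 for Csf1, 0.30 for Cxcl1, 0.59 for Ccl2 and 0.68 for Cx3cl1. In cells with at most 5% mitochondrial UMIs they were 4.57 for Csf3, 0.35 for Cxcl1 and 0.15 for Ccl2. In the stricter ECs they were 0.67 for Cxcl2 and 0.22 for Ccl2. Without the 10 richest cells they were 4.64 for Csf3, 0.43 for Cxcl1, 0.80 for Cxcl2 and 0.12 for Ccl2. Median-of-ratios scaling gave 0.34 for Ccl2, and the log2 ratio of Cxcl2 was 0.79 without the cell richest in neutrophil markers.

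Without thinning, the ratio of the shares of cells, cGAMP over PBS, was 4.96 for Csf3 and 1.12 for Csf1, in place of 8.62 and 0.895, so that the direction for Csf1 turned. Thinned to 10000 UMIs, the ratio for Cxcl1 was 1.14 in place of 1.39. With a minimum of 20 CPM the median log2 ratio of the other myeloid ligands was 0.21 over 4 genes, in place of 1.32 over 7 of which 3 had passed 5 CPM only through the cGAMP library, and that of transcription factors and mRNA decay was 0.013.

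The log2 ratio of stalk-like over other ECs depended on the clustering. For Csf3 it was 3.62 after PBS and 3.21 after cGAMP with no integration, 3.79 and 2.58 with all variable genes but the members, and 3.42 after cGAMP at resolution 0.3. For Csf1 it was 0.55 after cGAMP with no integration. For Cxcl1 it was 0.998 after PBS with no integration, 0.95 and 1.51 with all variable genes but the members, and 1.37 after cGAMP at resolution 0.3. For Ccl2 it was -1.78 after PBS at resolution 0.3, -1.89 after PBS with all variable genes but the members and -1.85 after cGAMP at resolution 1.2. For Cxcl2 it was -0.33 after PBS with no integration, and after cGAMP it turned to 0.29 at resolution 0.3 and to 0.55 with all variable genes but the members. For Ccl7 it turned to 0.012 after PBS and 0.063 after cGAMP with all variable genes but the members, and to 0.12 after cGAMP with no integration. For Cx3cl1 it was 1.55 after PBS at resolution 0.3, 1.73 with no integration and 1.69 with all variable genes but the members, and after cGAMP it turned to 0.47, 0.32 and 0.64 under the same settings, in which Igfbp5 is among the leading genes of a stalk-like cluster. Without the 2 richest cells, the log2 ratio turned to -0.077 for Csf1 in the tip-like Chga cluster, to -0.035 for Cxcl1 in proliferative ECs and to 0.035 for Cxcl2 in arterial ECs. The cause of these changes was not tested. No paired analysis was possible because each condition was 1 library.

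Median mitochondrial UMIs were 4.49% after PBS and 2.87% after cGAMP. Treatment, mouse, library and depth cannot be told apart in this design. Intervals cover counting error only.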
